A study of Homo sapiens with 8 samples.

Results

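The comparison set the CDK2 hairpin shCDK2 #3 against a scrambled control hairpin in NB4, a human acute promyelocytic leukaemia line that carries the PML-RARA fusion and is arrested at the promyelocyte stage. Its members were the arrays titled for shCDK2 #3 at day 2 and day 5 and for scramble at day 2 and day 5, which were 4 of the 8 arrays of the series. In every group lentivirus delivered the hairpin, at 10 infectious units per cell, and total RNA was taken after 2 days, labelled an early differentiation stage, or after 5 days, labelled a late one. The labels name no differentiating agent. The other 4 arrays carried 2 further CDK2 hairpins, shCDK2 #10 and shCDK2 #1, on the same days. Each construct had 1 array per day, so shCDK2 #3 was set against scramble of its own day and the 2 days served as the repeats. Whether the 2 days of a construct are separate cultures is not labelled, and the p-values reflect only how far these arrays spread, which may be technical.

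CDK2 is the kinase that, with cyclin E and cyclin A, drives cells into and through S phase. A hairpin is processed to a small interfering RNA that leads to decay of the matching mRNA, and hairpins of different sequence against 1 mRNA share that target but not the other transcripts they may touch. Several of the gene groups described here belong to the response to low oxygen. In it the transcription factor HIF is stabilised, binds core letters in DNA such as ACGTG, and raises genes of glucose use, mitophagy and angiogenesis. That response is known as background only, and oxygen was not measured here.

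Values were log2 signals as deposited, and each gene was read from its brightest probe set of 1 gene. Genes were tested where the mean over the 8 arrays exceeded 5.83 log2, which is the 40th percentile of all probe sets, and 12845 genes did so. Signals were most widely spread in shCDK2 #3 at day 5 (SD 2.26 log2 over all probe sets, against 2.14 to 2.21 in the other arrays). The bioB spike-in, a bacterial transcript added to each sample, averaged 8.69 log2 over 6 probe sets in that array and 9.13 to 9.43 in the other 7. The number of arrays limits the precision.

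The 2 arrays of shCDK2 #3 were far apart from each other. Over all probe sets the difference between them had a standard deviation of 0.52 log2. The array labelled shCDK2 #3 at day 2 lay nearest to shCDK2 #1 at day 2 (0.32) and to scramble at day 2 (0.33). By contrast, shCDK2 #3 at day 5 lay nearest to shCDK2 #10 at day 2 (0.34), and its distance from the array labelled scramble at day 5 was 0.54. The 2 scramble arrays differed by 0.32, and each pair of arrays shared identical values at 13 to 47 of 49395 probe sets.

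NB4 identity was checked on primary granule genes, which promyelocytes express. MPO, the myeloperoxidase gene, read 14.40 and 14.26 log2 in the shCDK2 #3 arrays, against 14.35 and 14.15 in scramble. PRTN3, AZU1 and CTSG, serine protease genes of the same granules, lay between 7.97 and 11.18 log2 in these 4 arrays. The elastase gene ELANE was dim at 5.83 and 6.24 in shCDK2 #3 and at 6.31 and 6.35 in scramble. The stem cell factor receptor gene KIT was dim in all 4 arrays, at 3.95 and 3.81 in shCDK2 #3. Defining genes of other cell types, CD3E for T cells, EPX for eosinophils, COL1A1 for fibroblasts and EPCAM for epithelium, lay between 5.73 and 6.82. Other members of these lists were bright in NB4: PRG2, an eosinophil granule gene, read 13.24 and 13.88 in shCDK2 #3, against 12.41 and 12.07 in scramble, and CD3D, a T cell receptor component gene, lay between 8.81 and 9.54. In these bulk samples, a change in the share of cells of a kind and a change in RNA per cell cannot be told apart.

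CDK2 itself did not separate the groups. On its brightest probe set (11720781_a_at) the signal was 9.03 log2 in the array labelled shCDK2 #3 for day 2, close to scramble, and 7.72 in shCDK2 #3 at day 5, against 9.10 in scramble at day 2 and 8.19 in the array labelled scramble at day 5. As a share of scramble of the same day these were 95.0% and 72.3%. The second probe set gave 80.5% and 76.4%, and the dimmest gave 108% and 81.2%. The scramble arrays themselves differed by nearly 1 log2 on the brightest probe set. For day 2 and day 5 they read 9.19 and 7.85 on the second, but 7.51 and 7.53 on the dimmest. On the brightest, shCDK2 #10 read 7.54 and 8.08 and shCDK2 #1 read 7.78 and 7.89, all below both scramble arrays. Why the scramble arrays differed in CDK2 was not tested. In limma the change of CDK2 over both days was -0.27 log2 (SE 0.42, 95% confidence interval -1.25 to 0.71, adjusted p = 0.814), and it did not pass. Differences at day 2 and at day 5 below are each taken against scramble of the same day. Whether the labels of shCDK2 #3 at day 2 and of the later scramble array are right was not tested. Directions drawn from either of these arrays carry that doubt.

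**Figure D1:**
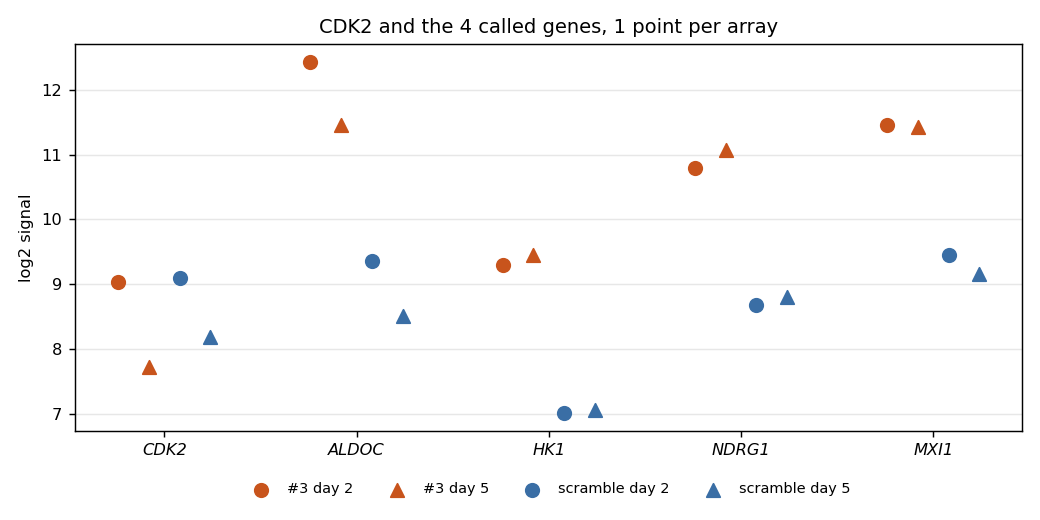
Log2 signal (vertical axis) of CDK2 and of the 4 genes called against scramble, with 1 point per array; orange points are shCDK2 #3, blue points scramble, circles day 2 and triangles day 5. For ALDOC, HK1, NDRG1 and MXI1 both shCDK2 #3 arrays lie above both scramble arrays, while the CDK2 points of the 2 groups overlap.

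With both days as repeats, 4 of 12845 genes rose in shCDK2 #3 (0.0311%) and 0 fell (0%), in limma with construct and day as terms and Benjamini-Hochberg adjusted p under 0.05. Without adjustment 1216 genes had p under 0.05. ALDOC, the gene of aldolase C, a glycolytic enzyme, read 12.44 log2 and 11.46 log2 in the shCDK2 #3 arrays of day 2 and day 5, against 9.36 and 8.51 in scramble. HK1, the gene of hexokinase 1, which traps glucose in the cell by phosphorylation, read 9.29 and 9.45 in shCDK2 #3, against 7.01 and 7.06 in scramble. NDRG1, a stress-responsive gene induced by low oxygen and iron loss, read 10.80 and 11.08 in shCDK2 #3, against 8.68 and 8.80 in scramble. MXI1 encodes a partner of MAX that opposes MYC, and it read 11.46 and 11.43 in shCDK2 #3, against 9.44 and 9.16 in scramble. For each of the 4 genes both shCDK2 #3 arrays lay above both scramble arrays, as they did for 15.8% of all genes tested.

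The changes were 3.02 log2 for ALDOC (SE 0.29, interval 2.33 to 3.70, adjusted p = 0.0444), 2.33 for HK1 (SE 0.24, interval 1.78 to 2.89, adjusted p = 0.0467), 2.20 for NDRG1 (SE 0.20, interval 1.73 to 2.66, adjusted p = 0.0444) and 2.14 for MXI1 (SE 0.20, interval 1.68 to 2.61, adjusted p = 0.0444). Because the days are the repeats, genes that moved alike on both days are the most easily called. The calls also rest on single settings: none passed after median centring or without any one of shCDK2 #3 at day 5, scramble at day 2 and the array labelled scramble at day 5, while 213 genes, 210 higher and 3 lower, passed when the shCDK2 #3 array of day 2 was left out. In shCDK2 #10, measured against the same scramble arrays, the changes of ALDOC, HK1, NDRG1 and MXI1 were 2.82, 3.21, 2.54 and 2.37, and in shCDK2 #1 they were 0.30, 0.30, 0.61 and 0.32.

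Further probe sets of the called genes did not all show the same size. All 5 probe sets of ALDOC were higher in shCDK2 #3 on both days, with changes of 1.53 to 3.08 log2, and all 4 of HK1 were, with 1.02 to 2.33. MXI1 had 5 probe sets, all higher on both days, with 0.44 to 2.14. For NDRG1 the brightest probe set alone carried the rise: the other 5 had changes between -0.16 and 0.43, and 3 of the 6 were higher on both days. Averaged over its probe sets NDRG1 stood at 0.49, and under that setting no gene passed. The probe sets used were 11747079_x_at for ALDOC, 11718292_s_at for HK1, 11754337_s_at for NDRG1 and 11730498_s_at for MXI1. In the array's naming, the endings _x_at and _s_at mark probes that may also bind other transcripts. On GRCh38.p14, RefSeq places ALDOC at chr17:28573120-28576895, HK1 at chr10:69270000-69401882 and MXI1 at chr10:110207605-110287365, and NDRG1 on chromosome 8.

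**Figure D2:**
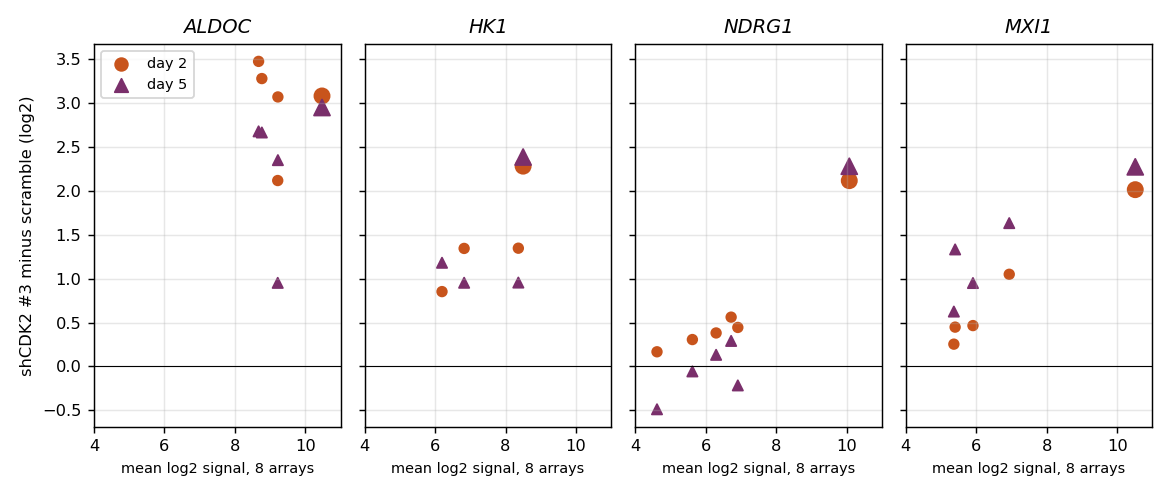
Difference of shCDK2 #3 from scramble of the same day (vertical axis, log2) against mean log2 signal over the 8 arrays (horizontal axis) for every probe set of the 4 called genes, with circles for day 2, triangles for day 5 and larger symbols for the probe set that stood for the gene. All probe sets of ALDOC, HK1 and MXI1 lie above 0, and for NDRG1 the brightest probe set stands apart from the other 5.

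The promoters of these genes are shown because ALDOC and many members of the hypoxia list moved together. They can be searched for ACGTG, which is 1 form of the core letters bound by HIF. The sequences are the 250 bases before the gene start in RefSeq on GRCh38.p14, written 5′ to 3′ on the strand of the gene, with ACGTG or its reverse complement CACGT in capitals. They cover 3 of the called genes and 5 hypoxia or glycolysis genes over 1 log2 above scramble on both days, of which BNIP3, ENO2 and P4HA1 were chosen for holding the letters and ADM and PDK1 for holding none.
ALDOC, chr17:28576896-28577145 (minus strand): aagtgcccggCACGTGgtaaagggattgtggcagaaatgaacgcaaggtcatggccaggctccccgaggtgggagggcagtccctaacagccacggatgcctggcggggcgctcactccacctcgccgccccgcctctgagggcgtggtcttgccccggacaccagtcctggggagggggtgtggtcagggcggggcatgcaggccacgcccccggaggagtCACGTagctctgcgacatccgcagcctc
HK1, chr10:69269750-69269999 (plus strand): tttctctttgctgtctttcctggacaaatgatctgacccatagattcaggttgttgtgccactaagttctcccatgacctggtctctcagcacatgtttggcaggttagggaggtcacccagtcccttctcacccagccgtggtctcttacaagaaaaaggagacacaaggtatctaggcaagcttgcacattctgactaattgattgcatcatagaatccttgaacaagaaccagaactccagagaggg
MXI1, chr10:110207355-110207604 (plus strand): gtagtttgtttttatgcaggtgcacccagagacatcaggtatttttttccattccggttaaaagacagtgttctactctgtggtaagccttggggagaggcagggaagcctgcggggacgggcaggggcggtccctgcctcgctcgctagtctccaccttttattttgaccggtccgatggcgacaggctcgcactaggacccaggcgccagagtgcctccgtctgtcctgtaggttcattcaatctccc
BNIP3, chr10:131981924-131982173 (minus strand): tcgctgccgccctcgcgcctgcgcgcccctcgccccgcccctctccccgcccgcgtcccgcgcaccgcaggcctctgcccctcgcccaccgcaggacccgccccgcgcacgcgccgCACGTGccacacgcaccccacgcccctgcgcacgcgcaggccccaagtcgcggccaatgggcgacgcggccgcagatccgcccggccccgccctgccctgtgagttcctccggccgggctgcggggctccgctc
ENO2, chr12:6914330-6914579 (plus strand): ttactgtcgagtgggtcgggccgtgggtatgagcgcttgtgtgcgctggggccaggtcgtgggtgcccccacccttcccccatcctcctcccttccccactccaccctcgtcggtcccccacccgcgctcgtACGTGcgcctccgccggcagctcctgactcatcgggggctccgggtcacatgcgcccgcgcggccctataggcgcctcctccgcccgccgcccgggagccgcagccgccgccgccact
P4HA1, chr10:73096867-73097116 (minus strand): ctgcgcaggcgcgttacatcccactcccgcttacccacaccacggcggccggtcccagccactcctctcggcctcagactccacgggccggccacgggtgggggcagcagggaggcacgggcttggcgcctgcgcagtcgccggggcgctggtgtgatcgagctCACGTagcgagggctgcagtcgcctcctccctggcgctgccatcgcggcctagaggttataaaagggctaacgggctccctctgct
ADM, chr11:10304823-10305072 (plus strand): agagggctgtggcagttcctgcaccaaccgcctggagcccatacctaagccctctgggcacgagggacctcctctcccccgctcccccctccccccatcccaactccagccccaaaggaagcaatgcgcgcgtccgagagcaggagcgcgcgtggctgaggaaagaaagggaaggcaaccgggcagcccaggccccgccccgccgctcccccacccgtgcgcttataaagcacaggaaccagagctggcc
PDK1, chr2:172555123-172555372 (plus strand): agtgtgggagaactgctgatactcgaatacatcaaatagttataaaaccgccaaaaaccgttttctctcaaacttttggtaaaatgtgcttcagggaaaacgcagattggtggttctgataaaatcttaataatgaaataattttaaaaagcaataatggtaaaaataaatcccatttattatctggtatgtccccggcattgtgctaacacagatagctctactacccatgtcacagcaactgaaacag

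ALDOC held the letters at -240 and -239, where the 2 matches overlap in the palindrome CACGTG, and at -28, counted from the gene start. BNIP3 held such a palindrome at -134 and -133, ENO2 a match at -118 and P4HA1 one at -86. HK1, MXI1, ADM and PDK1, like PFKFB4 and VLDLR, held neither ACGTG nor CACGT in this window, which is taken at 1 start per gene. The other form of the core, GCGTG, was not counted, and the windows of ADM, PFKFB4 and VLDLR hold it. Either strand of the motif was found in 15 of the 25 hypoxia list genes with a promoter in the table (60%) and in 10 of the 25 glycolysis genes (40%), against 2304 of the 10382 tested genes with a promoter (22.19%). Of the genes over 1 log2 above scramble on both days, 25 of 71 held it (35.21%), and of the 15 genes named as higher 2 of 11 did (18.18%), below the share of all tested genes. The hypoxia list was made of genes already known to be induced by low oxygen, so its share of the motif is not a result of these arrays. All of these are matches of 5 letters and not measured binding sites.

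Most genes over 1 log2 above scramble at day 2 were also over 1 log2 above it at day 5, and few of those below it stayed so far below. By sign alone this did not hold. Of 6929 genes above scramble at day 2, 2948 were above it on both days, and of 5911 below it, 3226 were below on both. At day 2, 129 genes stood over 1 log2 above scramble (1%) and 118 over 1 log2 below it (0.919%). At day 5 the counts were 796 (6.2%) and 44 (0.343%). Above scramble on both days by over 1 log2 were 90 genes (0.701%), which are 69.8% of the day 2 genes and 11.3% of the day 5 genes. Below it on both days were 3 genes (0.0234%), 2.54% of the day 2 genes and 6.82% of the day 5 genes. The median of the 90 genes was 1.40 at day 2 and 1.93 at day 5, and 76 of them had the larger difference at day 5. In 20 of the 90 a scramble array lay under 5.83 log2, so that the size of those differences is uncertain. Over all genes the differences had a standard deviation of 0.37 at day 2 and 0.61 at day 5, with r = 0.21 across genes, which are not independent replicates, and 48.1% had the same sign on both days. The median over all genes was 0.03 at day 2 and -0.09 at day 5.

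Small differences depended on brightness. In the dimmest tercile of genes the median was 0.09 at day 2 and -0.32 at day 5, and in the brightest tercile it was -0.11 and 0.08. After quantile normalization these medians were 0.06 and -0.21 in the dimmest tercile and 0.00 and -0.09 in the brightest. Counts over 1 log2 above scramble were then 138 at day 2 and 642 at day 5, and 89 genes were above it on both days. After median centring the counts above were 116 and 1046, those below were 134 and 14, and 91 genes were above scramble on both days.

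**Figure D3:**
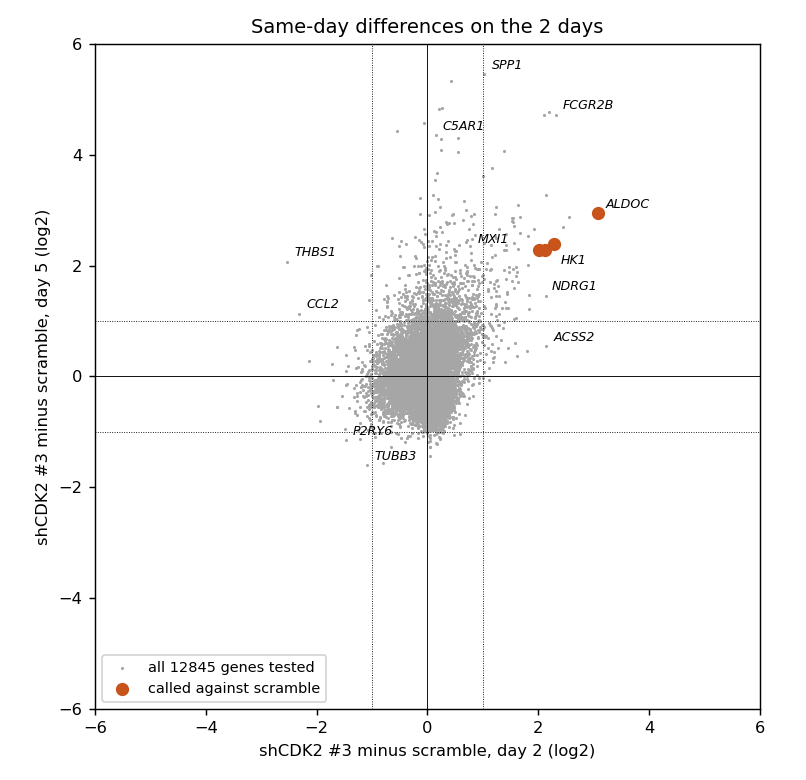
Difference of shCDK2 #3 from scramble at day 2 (horizontal axis, log2) and at day 5 (vertical axis, log2) for the 12845 genes tested, with the 4 called genes in orange, dotted lines at 1 and -1 log2 and further genes named. The called genes lie near the diagonal, ACSS2 lies to the right of it, SPP1 and C5AR1 lie high at day 5, and THBS1 and CCL2 are below scramble at day 2 and above it at day 5.

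Glycolysis genes were mostly above scramble, with 2 of 25 tested members called, against 0.0311% of all genes tested. The list had a median change of 0.40 log2 with 21 of 25 above 0, against -0.07 and 40.9% over all genes, and its medians were 0.24 at day 2 and 0.46 at day 5. Over 1 log2 above scramble on both days were 5 members, ALDOC, HK1, PDK1, PFKFB4 and ENO2, against 0.701% of all genes tested. PDK1, the kinase that blocks entry of pyruvate into the mitochondrion, read 9.20 and 9.75 log2 in shCDK2 #3, against 7.68 and 6.90 in scramble. PFKFB4, a regulator of phosphofructokinase, read 10.56 and 10.65 in shCDK2 #3, against 8.93 and 8.35 in scramble. For PFKFB4 and PDK1 both shCDK2 #3 arrays lay above both scramble arrays, as they did for 15.8% of all genes tested. ENO2, a neuronal enolase gene, read 8.53 and 8.89 in shCDK2 #3, against 7.05 and 7.01 in scramble. The changes were 2.19 for PDK1, 1.96 for PFKFB4 and 1.68 for ENO2, each with adjusted p = 0.092, and none passed. HK2, a further hexokinase gene, had differences of 0.71 at day 2 and 1.97 at day 5, and GBE1, the glycogen branching enzyme gene, had 0.89 and 1.58.

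Several abundant members had smaller differences. GAPDH read 14.43 and 14.33 log2 in shCDK2 #3, against 14.48 in each scramble array. LDHA, of lactate dehydrogenase, had differences of 0.17 and 0.24, PGK1, of phosphoglycerate kinase, 0.52 and 0.29, and the glucose transporter gene SLC2A1 -0.14 and 0.44.

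The hypoxia-inducible list outside glycolysis had the highest median of the 25 lists over both days, with a median change of 1.04 log2. Of its 35 members 31 were above 0 and 2 were called, against 40.9% and 0.0311% of all genes tested. The lists were chosen with earlier results of these data known, so this rank is not a test. With averaged probe sets the hypoxia median was 0.65, below the NF-kB list (0.74) and the interferon list (0.66). Without shCDK2 #3 at day 5 it was also 0.66. Its medians were 0.62 at day 2 and 1.40 at day 5, and 13 members were over 1 log2 above scramble on both days, against 0.701% of all genes. In shCDK2 #10 and shCDK2 #1, against the same scramble arrays, its medians were 1.38 and 0.10. BNIP3 and BNIP3L, whose products mark mitochondria for mitophagy, had large differences. BNIP3L read 10.33 and 11.60 in shCDK2 #3, against 8.65 and 8.73 in scramble, with all 6 of its probe sets higher on both days. BNIP3 read 12.24 and 12.12 in shCDK2 #3, against 10.70 and 9.33 in scramble. The changes were 2.27 for BNIP3L (adjusted p = 0.0982) and 2.17 for BNIP3 (adjusted p = 0.0981), and neither passed.

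Among further named members, ADM, the gene of the vasodilator peptide adrenomedullin, read 11.55 and 11.48 log2 in shCDK2 #3, against 9.86 and 8.89 in scramble, a change of 2.13 (SE 0.24, adjusted p = 0.0655). It did not pass here and passed after quantile normalization (2.11, adjusted p = 0.0394). P4HA1, a collagen prolyl hydroxylase subunit gene, had differences of 1.24 and 3.06, HILPDA, a lipid droplet protein gene, 1.56 and 2.72, and DDIT4, an inhibitor of mTORC1, 1.26 and 1.74. SPAG4, a nuclear envelope protein gene, read 7.44 and 8.21 in shCDK2 #3, against 4.88 and 5.33 in scramble, so that it was dim in scramble, and its change was 2.72 (SE 0.38, adjusted p = 0.092).

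Regulators of the pathway and some of its known targets had smaller day 2 differences than the members named above, and varied at day 5. HIF1A, the gene of the oxygen-regulated subunit, had differences of -0.06 at day 2 and 0.85 at day 5, and VHL, which marks that subunit for degradation, had -0.61 and 1.07. EGLN1, a prolyl hydroxylase gene that senses oxygen, had 0.35 and 1.42, and the histone demethylase gene KDM3A had 0.94 and 1.93. At day 5 both were above the list median of 1.40. VEGFA, the angiogenic growth factor gene, read 9.37 and 8.82 in shCDK2 #3, against 9.09 and 9.39 in scramble, and its groups overlapped. LOX, at -0.02 and -0.30, and PPFIA4, at 0.11 and -0.69, were likewise not above scramble on both days.

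**Figure D4:**
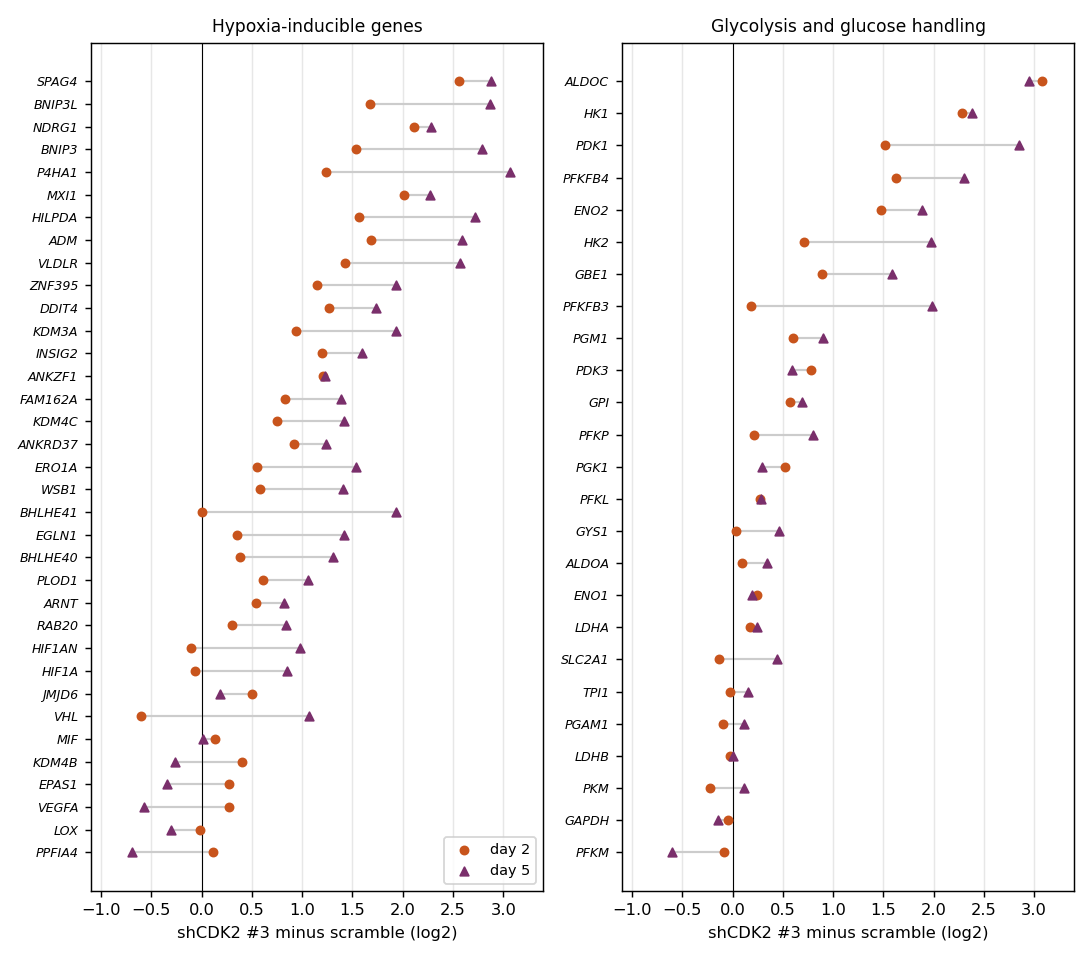
Difference of shCDK2 #3 from scramble of the same day (horizontal axis, log2) for each tested member of the hypoxia-inducible list (left, 35 genes) and the glycolysis list (right, 25 genes), with orange circles for day 2 and purple triangles for day 5, ordered by the change over both days. In the hypoxia list 13 members lie over 1 log2 on both days, in the glycolysis list 5 do, and GAPDH lies near 0.

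Cholesterol genes were mostly above scramble at day 2. Their day 2 median was 0.63 log2, with 21 of 23 members above 0, against 53.9% of all genes, and the day 5 median was 0.25 with 13 above 0, or 0.04 with 12 above 0 after quantile normalization. None was called over both days. HMGCS1, of an early step of cholesterol synthesis, read 11.61 and 10.56 in shCDK2 #3, against 9.48 and 9.10 in scramble. INSIG1, which holds the sterol-regulated factor SREBP in the endoplasmic reticulum, read 12.67 and 12.25 in shCDK2 #3, against 11.07 and 10.44 in scramble. MSMO1, a sterol oxidase gene, read 10.64 and 9.78 in shCDK2 #3, against 9.09 and 8.75 in scramble. In all 3 genes both shCDK2 #3 arrays lay above both scramble arrays, as they did for 15.8% of all genes tested. The changes were 1.80 (adjusted p = 0.264), 1.71 (adjusted p = 0.0982) and 1.30 (adjusted p = 0.36). DHCR7, of the last step of the pathway, had 1.45 at day 2 and 0.51 at day 5.

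Among fatty acid and lipid droplet genes the median was 0.06 at day 2 and 0.30 at day 5. Against 2948 of all 12845 genes, 11 of the 20 members were above scramble on both days. The desaturase genes were among these, SCD with 1.38 and 1.92, FADS1 with 1.14 and 0.90 and FADS2 with 1.80 and 0.46. PLIN2, which coats lipid droplets, had 1.29 and 2.66. FASN, of fatty acid synthase, had -0.04 and -0.58. ABCA1, the cholesterol exporter gene in the cholesterol list, had 1.52 and 2.80, and both its scramble values were under 5.83 log2.

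Cell surface and RNA-binding genes were among the largest differences that did not pass. FCGR2B, of the inhibitory Fc receptor for IgG, read 8.24 and 10.84 log2 in shCDK2 #3, against 5.93 and 6.12 in scramble. Its change was 3.52 (SE 0.58, adjusted p = 0.129), and its 4 probe sets had 1.16 to 4.06. Probes of FCGR2B may also bind the near-identical FCGR2C and the related FCGR2A. ZFP36L1, of a protein that promotes mRNA decay, read 7.64 and 11.43 in shCDK2 #3, against 5.45 (under 5.83) and 6.66 in scramble. Its 6 probe sets disagreed, with changes of -0.40 to 3.48 and 2 above 0.

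Further genes with large differences on both days also did not pass. CD300A, an inhibitory receptor gene, read 9.58 and 10.45 in shCDK2 #3, against 7.77 and 8.44 in scramble. SLC6A8, the creatine transporter gene, had differences of 1.81 and 2.53. CLEC2B, with 2.15 and 3.28, NEDD9, an adhesion scaffold gene with 2.10 and 4.71, and KLHL24, with 1.93 and 2.65, were under 5.83 log2 in both scramble arrays. TET1, of an enzyme that oxidises 5-methylcytosine, read 7.54 and 7.05 in shCDK2 #3, against 5.97 and 5.45 in scramble. Its change was 1.58 (SE 0.17, adjusted p = 0.0512), with 0.63 in shCDK2 #10 and -0.28 in shCDK2 #1 against the same scramble arrays. TET1 did not pass here and passed after quantile normalization and with no filter. Its value in the array labelled scramble at day 5 was under 5.83 log2.

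Tubulin genes went in different directions. TUBA1A, an alpha tubulin gene, read 10.63 and 10.28 log2 in shCDK2 #3, against 8.18 and 7.60 in scramble, with both of its probe sets alike (2.57 and 2.83). TUBB3, a beta tubulin gene known from neurons, read 8.85 and 8.61 in shCDK2 #3, against 9.94 and 10.21 in scramble. The changes of 2.57 (SE 0.53, adjusted p = 0.212) and -1.35 (SE 0.20, adjusted p = 0.0982) did not pass. TUBB4B had differences of -0.78 and -0.67. The list of 12 tubulins had a median of -0.24 and a mean of 0.01, opposite in sign.

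Of genes below scramble, none passed. P2RY6, a nucleotide receptor gene, read 6.54 and 6.86 in shCDK2 #3, against 8.01 and 8.02 in scramble, a change of -1.32 (adjusted p = 0.0951). Genes of the peroxiredoxin, thioredoxin and NRF2 list had a median of -0.18 with 20 of 26 below 0, against 7586 of all 12845 genes. NQO1, a quinone reductase gene controlled by NRF2, read 9.26 and 8.52 in shCDK2 #3, against 10.07 and 10.08 in scramble. PIR, an iron-binding nuclear protein gene, had differences of -1.21 and -1.14, and SLC7A11, of the cystine importer, had -1.93 and -0.80. TXNIP, the thioredoxin-binding gene of that list, was above scramble instead, with 1.57 and 2.40. Both shCDK2 #3 arrays lay below both scramble arrays for NQO1, P2RY6 and SLC7A11, as they did for 18.8% of all genes tested.

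Cell cycle genes, the group closest to the known role of CDK2, had small negative medians. Over all genes tested, 7586 of 12845 had a change below 0. E2F targets and DNA replication genes had a median change of -0.26 log2, with 43 of 49 below 0 and 0 called. Their medians were -0.34 at day 2 and -0.22 at day 5, or -0.22 and -0.43 after quantile normalization. CCNE2, a cyclin E gene and partner of CDK2, read 5.30 and 7.99 in shCDK2 #3, against 7.44 and 7.71 in scramble. Its difference was thus -2.14 at day 2, where the shCDK2 #3 value was under 5.83 log2, and 0.28 at day 5. The G2/M list had 40 of 53 below 0 and 0 called, with medians of -0.00 at day 2 and -0.33 at day 5, and its day 2 median was 0.09 after quantile normalization. Over both days its median was -0.13, and 0.05 without shCDK2 #3 at day 5. FOXM1, of a mitotic transcription factor, read 7.81 and 7.78 in shCDK2 #3, against 8.74 and 8.49 in scramble. CCNA2, of cyclin A, read 9.99 and 9.57 in shCDK2 #3, against 10.55 and 10.60 in scramble. For both genes both shCDK2 #3 arrays lay below both scramble arrays, as they did for 18.8% of all genes tested. The changes were -0.82 (adjusted p = 0.318) and -0.80 (adjusted p = 0.295). CDK1 and the proliferation marker MKI67 had 0.15 and -0.12.

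Among 30 CDK, cyclin and inhibitor genes the median change was -0.02 (0.03 after median centring), the mean was 0.06 and none was called. CDKN1B, of the CDK2 inhibitor p27, had differences of 0.56 and 1.36, RBL2, of the pocket protein p130, 0.68 and 1.18, and CDKN1A, of p21, 0.22 and 1.00. The p53 target list had a median of 0.09 with 0 called, and BBC3, of the death protein PUMA, read 9.81 and 10.28 in shCDK2 #3, against 8.56 and 8.83 in scramble (change 1.35, SE 0.17, adjusted p = 0.0887). In the MYC, MAX and MXD list of 13 genes, MXI1 was the member called, MXD1, a further MAX partner, had 0.48 and 1.71, and MYC had 0.11 and 0.20.

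Ribosome assembly and heat shock genes had negative medians on both days. Of all genes tested, 53.9% were above 0 at day 2 and 43.9% at day 5. The ribosome assembly list had a median of -0.59 log2 at day 2, with 2 of 36 above 0. At day 5 its median was -0.16, with 10 above 0, or 17 after median centring. Over both days its median was -0.39, and -0.10 without scramble at day 2. GRWD1, a ribosome assembly factor gene, read 10.23 and 10.20 in shCDK2 #3, against 11.20 and 10.86 in scramble, and NPM1, of nucleophosmin, read 14.00 and 13.77 in shCDK2 #3, against 14.04 and 13.77 in scramble. Heat shock and chaperonin genes had medians of -0.39 at day 2 and -0.24 at day 5, an order that turned after quantile normalization (-0.28 and -0.37). Over both days 17 of 19 were below 0, against 7586 of all 12845 genes, and 0 were called. The median of this list was -0.23, and -0.06 without scramble at day 2. HSPA1B, of inducible HSP70, had -1.55 at day 2 and -0.36 at day 5, and HSP90AA1 had -0.77 and -0.71. The stress response list, which holds targets of ATF4 and of the unfolded protein response, had medians of -0.02 and 0.42. ASNS, of asparagine synthetase, had 1.14 and 1.44 there, and VLDLR, a lipoprotein receptor gene, 1.42 and 2.57.

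Interferon, NF-kB and myeloid maturation genes stood near scramble in the array labelled shCDK2 #3 for day 2, and above scramble at day 5. The interferon list had medians of 0.12 at day 2, with 20 of 34 above 0, and 1.22 at day 5, with 32 above 0, against 43.9% of all genes at day 5. IFIT2, an antiviral RNA-binding protein gene, read 5.86 and 10.43 log2 in shCDK2 #3, against 6.41 and 6.00 in scramble. ISG15, of a ubiquitin-like modifier, read 9.21 and 10.99 in shCDK2 #3, against 9.08 and 8.81 in scramble. OAS2 and OAS3, antiviral synthetase genes, had -0.26 and -0.80 at day 5. The list's median change was 0.56 in shCDK2 #3, 1.92 in shCDK2 #10 and 0.12 in shCDK2 #1, against the same scramble arrays, and 0 members were called in shCDK2 #3. In shCDK2 #3 that median was 0.22 without the array labelled scramble at day 5, 0.37 without shCDK2 #3 at day 5, 0.97 without the shCDK2 #3 array of day 2 and 1.21 without scramble at day 2.

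The list of NF-kB and cytokine genes had medians of 0.13 at day 2 and 1.16 at day 5. At day 5, 29 of 32 were above 0, against 43.9% of all genes, and 0 were called over both days. Over both days its median was 0.62, with 0.11 to 0.91 when 1 of the 4 arrays was left out, lowest without the array labelled scramble at day 5. IL1B, of interleukin 1 beta, read 7.23 and 12.94 in shCDK2 #3, against 7.02 and 8.12 in scramble. CCL3, a chemokine gene, read 7.77 and 12.33 in shCDK2 #3, against 7.50 and 7.49 in scramble. In each the day 5 array of shCDK2 #3 stood apart from the other 3 arrays. TNFAIP3, a feedback inhibitor gene, had 1.14 and 2.38, CCL5 had 1.28 and 1.63, and TNF had -0.90 and 0.32.

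The granulocyte maturation list had medians of 0.04 and 0.80, with 20 of 26 above 0 at day 5, against 43.9% of all genes. Over both days its median was 0.39, and -0.06 without shCDK2 #3 at day 5. MMP9, of gelatinase B, read 10.66 and 13.77 in shCDK2 #3, against 9.96 and 11.31 in scramble. ITGAM, of the integrin subunit CD11b, read 7.21 and 10.51 in shCDK2 #3, against 6.88 and 8.14 in scramble, and S100A8, of a calcium-binding protein of neutrophils, had -0.64 and 2.50. CYBB, of the NADPH oxidase, had -1.27 and 0.84, and CEBPE, a granulocyte transcription factor gene, had -0.31 and 0.23. The 11 primary granule genes had medians of 0.15 and 0.48. DEFA4, a defensin gene, had 1.43 and 1.23. Over both days the 10 progenitor markers had a median of 0.09 and the 27 apoptosis and mitophagy regulators 0.18.

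Marker lists of other cell types were given beside these results, and their part in them was not tested. The 17 monocyte and macrophage genes had a mean level of 7.14 and 7.99 log2 in shCDK2 #3, against 7.07 and 7.38 in scramble, with 10 of 17 higher over both days. CD14, a monocyte receptor gene, read 5.30 and 8.43 in shCDK2 #3, against 5.19 and 5.15 in scramble. All but its day 5 value in shCDK2 #3 were under 5.83 log2, so that its size of difference is uncertain. The 8 eosinophil, basophil and mast cell genes averaged 9.38 and 9.95 in shCDK2 #3, against 9.01 and 9.21 in scramble, with 7 of 8 higher. The 12 lymphoid genes averaged 7.81 and 7.72 in shCDK2 #3, against 7.62 and 7.98 in scramble, with 4 higher. Of all genes tested, 40.9% were higher over both days. The 9 erythroid and megakaryocyte genes had a median of -0.06 and a mean of 0.19, opposite in sign, and the 12 fibroblast and epithelial genes a median of -0.18. CD3E, EPX, COL1A1 and EPCAM were dim and PRG2 and CD3D bright, as given above.

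**Figure D5:**
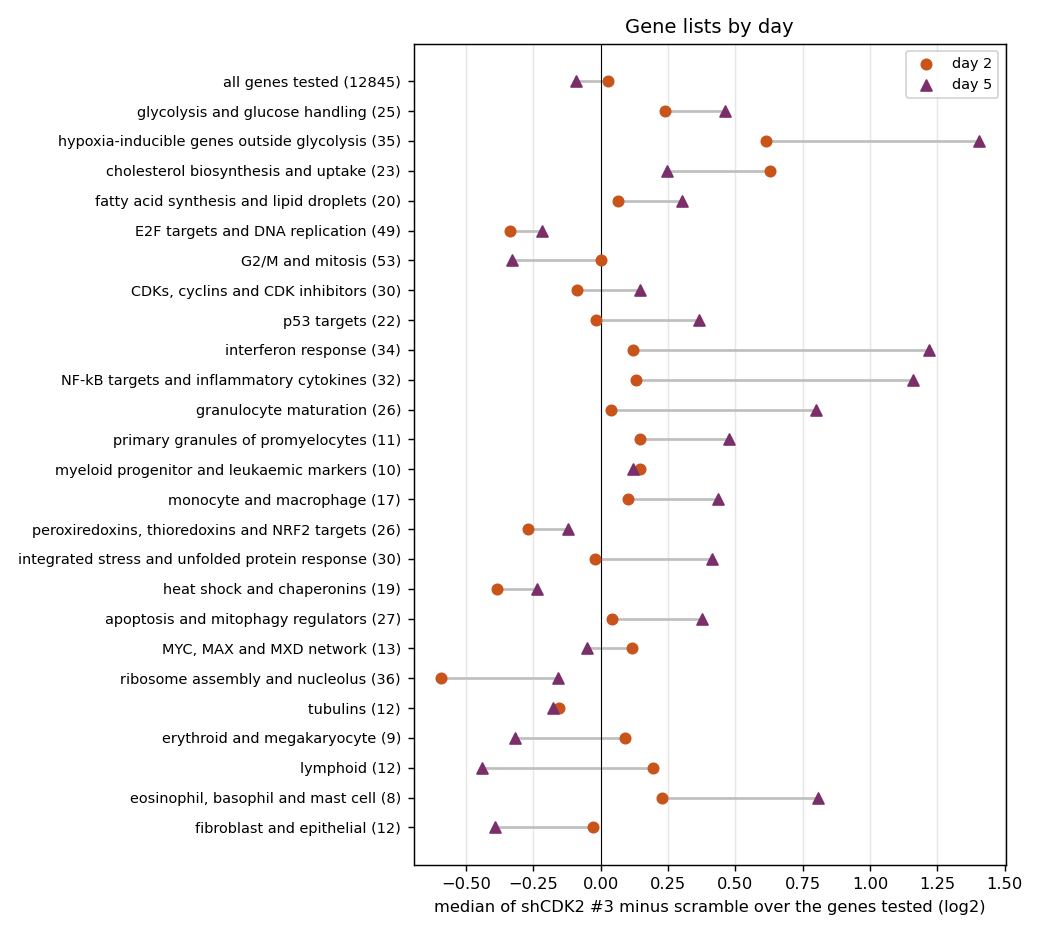
Median difference of shCDK2 #3 from scramble of the same day (horizontal axis, log2) over the tested genes of each list, with orange circles for day 2, purple triangles for day 5 and the number of genes in brackets. The hypoxia list has 0.62 at day 2 and 1.40 at day 5, the cholesterol list 0.63 and 0.25, and the interferon and NF-kB lists lie near 0.1 at day 2 and above 1.1 at day 5.

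The change with time in shCDK2 #3 was tested against the mean change with time of the other 3 constructs, with their spread as the error. In limma 1 gene passed, which is 0.00779% of those tested, and 2788 had an unadjusted p under 0.05. C5AR1, of the receptor for complement C5a, read 4.28 and 8.97 log2 in shCDK2 #3, against 4.13 and 4.61 in scramble. In shCDK2 #10 it read 8.60 and 8.98, high on both days, and in shCDK2 #1 4.53 and 4.95. C5AR1 was thus under 5.83 log2 in shCDK2 #3 at day 2 and in the scramble and shCDK2 #1 arrays. Its mean exceeded that filter only through the arrays where it was high, and the size of its change is uncertain. Its day 5 less day 2 change in shCDK2 #3 was 4.26 larger than in the other constructs (SE 0.21, interval 3.74 to 4.79, adjusted p = 0.0264). It did not pass against the day change of scramble alone (4.20, adjusted p = 0.155), without the hairpin 1 arrays (4.26, adjusted p = 0.105) or with the mean of its probe sets (2.18, adjusted p = 0.185). Without the hairpin 10 arrays 30 genes passed, all higher. Next by p were MEF2C, a myeloid and muscle transcription factor gene with a day change of 2.63, LACC1 with 3.25, PDE3B, a phosphodiesterase gene, with 2.20 and HMGA2, a chromatin protein gene, with 2.28 (adjusted p = 0.161 for each). On the lower side, sterol and fatty acid genes were among the smallest p, FADS2 with -1.57, ACAT2, of a step before HMGCS1, with -1.22, ACSS2, an acetyl-CoA synthetase gene, with -1.33 and MVK, of mevalonate kinase, with -1.15, and none passed.

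Set directly against the other hairpins, without scramble in the difference, shCDK2 #3 had 0 called genes in limma against shCDK2 #10 (0%) and 0 against shCDK2 #1 (0%). Without adjustment 740 and 1541 genes had p under 0.05, and the smallest adjusted p were 0.4 and 0.0805. CD3D, a T cell receptor component gene, read 9.48 and 9.54 log2 in shCDK2 #3, against 11.27 and 10.85 in shCDK2 #10, a difference of -1.54 (SE 0.20, adjusted p = 0.4). TET1 was 0.95 above shCDK2 #10 (adjusted p = 0.481) and 1.86 above shCDK2 #1 (adjusted p = 0.0805). DEFA4 read 8.75 and 7.28 in shCDK2 #3, against 6.14 and 6.39 in shCDK2 #10 and 6.62 and 6.47 in shCDK2 #1. Against shCDK2 #1 the differences of the 4 called genes were 2.71 for ALDOC, 2.03 for HK1, 1.82 for MXI1 (adjusted p = 0.0823 for each) and 1.59 for NDRG1 (adjusted p = 0.0901). EPDR1 had -1.54 against shCDK2 #1 (adjusted p = 0.0823). A value that misses the threshold does not show that the hairpins act alike. In settings added after seeing the data, 465 genes passed against shCDK2 #1 when the shCDK2 #3 array of day 2 was left out, and 2 passed against shCDK2 #10, BHLHE41 and C5AR1, both lower, without shCDK2 #3 at day 5.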

How the data were processed

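Gene expression was measured with Affymetrix arrays in 8 samples of NB4 cells, 1 per construct and day. As deposited, the values are log2 signals of 49395 probe sets. The submitters' processing notes name Partek, with version and normalization not given in the sources used here, and the log2 scale was inferred from the range of values. The platform annotation gave 1 gene for 44994 probe sets, several for 1832 and none for 2569. Symbols were updated by Entrez gene ID for 44967. Each of 18132 genes was its brightest probe set of 1 gene, and 12845 genes over the 40th percentile (5.83 log2) were tested.

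Fits used limma 3.58.1 in R 4.3.3 on all 8 arrays (lmFit, eBayes, two-sided, Benjamini-Hochberg adjusted p under 0.05 over all genes tested). Construct and day were terms (3 residual degrees of freedom, prior 4.54). The test of the day change added a term for shCDK2 #3 at day 5 (2 residual degrees of freedom, prior 3.55). The fit was tested on simulated data, with 14.6 false calls per simulation against scramble and 13.2 for the day change. Of changes of 1 log2 it recovered 53.7% and 14%, and of changes of 2 log2 99.4% and 95.8%. Figures used Python 3.11.15 with matplotlib 3.10.9.

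Named against scramble were CDK2, the called genes, genes by the smaller of the 2 same-day differences, up to 15 per direction, and up to 4 genes per list by size. For the day change and the other hairpins the genes with the smallest p were named. Genes listed by day, the other members of lists and the 5-letter motif were chosen after their values were seen. The members and lists were chosen with earlier results of these data known. Promoters came from RefSeq (GRCh38.p14). Alternatives were scaling, probe set choice, the filter, variance moderation and leaving out arrays. CD33 was not analysed here.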

Additional observations from a re-analysis of the deposited data

Results flagged for a closer look

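C5AR1 was flagged by the test of the day change. Its day 5 less day 2 change in shCDK2 #3 was 4.26 log2 larger than the mean of the other constructs (limma, adjusted p = 0.0264). It was under 5.83 log2 in shCDK2 #3 at day 2 and in the scramble and shCDK2 #1 arrays, so that this size is uncertain. Its mean exceeded that filter only through the arrays where it was high. The call was lost against the day change of scramble alone, without the hairpin 1 arrays and with the mean of its probe sets.

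In 4 genes shCDK2 #3 lay over 1 log2 below scramble at day 2 and over 1 log2 above it at day 5. This opposition of signs was not itself tested, and limma's test of the day change against the other constructs did not pass for them. THBS1, of the matrix protein thrombospondin 1, read 6.59 and 11.53 in shCDK2 #3, against 9.12 and 9.46 in scramble. Its day 5 difference exceeded its day 2 difference by 4.60 (day change 3.82, adjusted p = 0.161). CCL2, a monocyte chemokine gene, read 7.94 and 12.42 in shCDK2 #3, against 10.25 and 11.29 in scramble, a gap of 3.44 between the days (day change 2.71, adjusted p = 0.192). For IPCEF1 the gap was 2.84 (day change 3.74, adjusted p = 0.162) and for C1RL it was 2.43 (day change 2.92, adjusted p = 0.162). IPCEF1 and C1RL were under 5.83 log2 in the array labelled shCDK2 #3 at day 2.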

How the results depend on the processing

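Against scramble, the count of 4 called genes became 5 after quantile normalization (3 shared) and 5 with no filter, 0 after median centring, with averaged probe sets and above the 60th percentile, and 17 with a trended, robust variance. It was 9 without the hairpin 1 arrays, 27 without the hairpin 10 arrays, 262 in a fit of the 4 arrays alone (252 higher and 10 lower) and 1 without the day term. Leaving out 1 of the 4 arrays gave 0 to 213. For the day change the 1 call became 0 with the mean of probe sets, above the 60th percentile, without the hairpin 1 arrays and against scramble alone, and 30 without the hairpin 10 arrays. Above the 60th percentile C5AR1 was not itself among the genes tested. Against shCDK2 #1, 10 genes passed with a trended, robust variance, and leaving out a shCDK2 #3 array gave 0 to 465. Against shCDK2 #10 it gave 0 to 2. The same left-out arrays turned the sign of named genes against scramble, all uncalled, with these ranges: CDK2 -0.88 to 0.34, CCNE2 -2.44 to 0.58, RB1 -0.017 to 1.90, IFIT2 -0.32 to 4.19, ITGAM -0.27 to 2.98, S100A9 -0.20 to 2.67, LYZ -0.37 to 1.77, STAB1 -0.21 to 1.40, BCL2A1 -0.032 to 2.82, CD3E -0.58 to 0.027, NKG7 -0.0095 to 0.53, IL3RA -0.084 to 2.26, GATA2 -0.18 to 1.29 and FN1 -0.075 to 1.03. The cause was not tested. The main fit already paired the constructs by day.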

Other observations

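Of the 90 genes over 1 log2 above scramble on both days, 4 that belong to no list used here are given as values. They were chosen after their values were seen and did not pass. CCNG2, of an unusual cyclin, read 7.22 and 7.93 log2 in shCDK2 #3, against 5.57 (under 5.83) and 6.22 in scramble. HBP1, a transcriptional repressor gene, read 9.11 and 9.99 in shCDK2 #3, against 7.27 and 8.78 in scramble. BTG1, an antiproliferative gene, read 10.42 and 11.26 in shCDK2 #3, against 9.33 and 9.72 in scramble, and PDCD4, of an inhibitor of translation, read 9.92 and 10.78 in shCDK2 #3, against 8.68 and 9.51 in scramble.

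The secreted phosphoprotein gene SPP1 had the largest day 5 difference of all genes tested. It read 8.67 and 14.19 in shCDK2 #3, against 7.65 and 8.73 in scramble. PTX3, of a pattern recognition protein, came next and read 4.64 and 10.23 in shCDK2 #3, against 4.22 and 4.89 in scramble. All but its day 5 value in shCDK2 #3 were under 5.83 log2, so that the size of this difference is uncertain.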
